A study of Mus musculus with 24 samples.

Results

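Among the 11 aorta libraries of ATAD3A knock-in (KI) mice, Atad3a itself ran over a several-fold range, and each other gene was set against it to see which genes followed that range. These are 11 of the 24 libraries of the study, and the other 13 are wild type (WT). The KI-BAPN group (6 male mice, genotype ATAD3A-KI) drank β-aminopropionitrile (BAPN), a lysyl oxidase inhibitor used to induce aortic aneurysm and dissection, at 0.5% (w/v) for 28 days from 3 weeks of age. The KI group (5 male mice, genotype ATAD3A-KI) drank regular water, the WT-BAPN group (7 male wild type mice) drank the same BAPN dose, and the WT group (6 male wild type mice) drank regular water. Whole aortas, taken down to the abdominal bifurcation, gave the polyadenylated RNA. The labels describe neither the knock-in allele nor the promoter and cells that express it, name no strain and give no batch, and the counts cannot separate a knock-in transcript from the endogenous one. Where nothing says otherwise, each library is taken as 1 animal, and p-values measure the spread between these libraries.

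ATAD3A is an AAA ATPase of the inner mitochondrial membrane that reaches the outer membrane. It is known for holding cristae and mitochondrial nucleoids in order, for contacts between mitochondria and other membranes, and for a part in cholesterol traffic into mitochondria. In the aortic wall, smooth muscle cells carry the contractile load, and loss of their contractile programme accompanies aneurysm and dissection.

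The 11 KI libraries held 17952806 to 26490651 counts, and mitochondrially encoded genes took 5.12 to 14.8% of them. Smooth muscle genes marked the tissue, with Acta2 at 7115 to 35080 CPM (counts scaled to a common library total) and Myh11 at 2056 to 11710 CPM. Tagln, another smooth muscle marker, stood at only 14.4 to 29.2 CPM in the same libraries. Libraries differed in other tissue. The summed level of 17 adipocyte genes was 1119 to 15510 CPM in KI-BAPN and 822 to 16800 CPM in KI, highest in KI-BAPN replicate 3 and KI replicate 5. The summed level of 20 macrophage genes was 323 to 3304 CPM in KI-BAPN and 109 to 372 CPM in KI. No gene of the adipocyte or macrophage list was at 0 in any KI library.

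No KI library overlapped a WT library in Atad3a, and its range was wider among the KI animals. In KI-BAPN it ran from 232 CPM over a median of 564 CPM to 1043 CPM, and its mean was 594 ± 262 CPM (SD, n = 6). In KI it was 797, 635, 996, 1337 and 1668 CPM in replicates 1 to 5, with a mean of 1087 ± 417 CPM (SD, n = 5). The mean was 33.1 ± 7.23 CPM (SD, n = 7) in WT-BAPN and 39.95 ± 11.2 CPM (SD, n = 6) in WT. The highest library had 4.498 times the lowest in KI-BAPN, 2.63 times in KI, 1.79 times in WT-BAPN and 2.03 times in WT. The KI-BAPN and KI groups overlapped between 635 and 1043 CPM. After the mean of each treatment was taken off the log2 CPM, KI-BAPN replicate 3 was lowest, at -1.23, and KI-BAPN replicate 4 highest, at 0.94. These are the 2 libraries farthest in Atad3a.

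**Figure D1:**
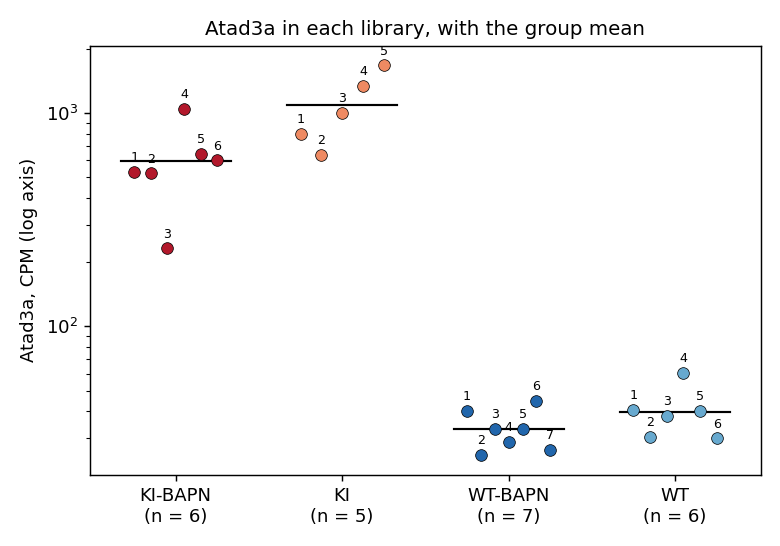
Atad3a in CPM, on a log axis, in each library of the 4 groups; numbers are replicates and lines are group means. The KI-BAPN points run from 232 to 1043 CPM and the KI points from 635 to 1668 CPM, all above the WT-BAPN and WT points, the highest of which is 60.7 CPM.

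No relation of Atad3a to the depth or makeup of the library passed the test, and some r were larger in fewer libraries. Over the 11 libraries, centred within treatment, Pearson's r was -0.08 with log2 total counts (Spearman's rho -0.07; exact permutation p = 0.868 and 0.851, two-sided). It was -0.23 with the mitochondrially encoded share (rho -0.09; exact permutation p = 0.518 and 0.805). The other 3 of the 5 measures had an r of -0.13 (share of the 10 highest genes), -0.05 (TMM factor) and -0.01 (genes with a read), with rho of -0.04, -0.23 and 0 and exact permutation p of 0.732, 0.892 and 0.981 for r and 0.93, 0.528 and 1 for rho. All 5 had a Benjamini-Hochberg adjusted p of 0.981 for r and 1 for rho. Without the 2 libraries farthest in Atad3a, r was -0.00 with log2 total counts, 0.47 with the mitochondrially encoded share, 0.50 with the share of the 10 highest genes, -0.73 with the TMM factor and -0.14 with genes with a read. Within KI-BAPN alone, r with the mitochondrially encoded share was -0.78.

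Few genes followed Atad3a closely enough to pass the test. For each gene a slope was fitted, the log2 change of the gene per log2 unit of Atad3a, with treatment in the model. Of 13647 genes tested in the KI libraries, 1 was called at an adjusted p under 0.05 (0.00733%). It was Cx3cr1, the fractalkine receptor of monocytes and macrophages, with a slope of -2.62 ± 0.30 (SE, edgeR adjusted p = 0.0404). Other tools differed widely, with 613 genes following Atad3a in KI by DESeq2 and 0 by limma voom. At an adjusted p under 0.1 there were 85 genes (0.623%), 56 with a positive and 29 with a negative slope. At an unadjusted p under 0.05 there were 1203 genes with a positive slope (8.82%) and 910 with a negative one (6.67%), and the median slope over all genes was -0.004. In whole aorta, fewer cells of a type and less RNA per cell cannot be told apart, here and in all that follows.

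Cx3cr1 was at 1.68 CPM at the lowest, 4.93 CPM at the median and 99.0 CPM at the highest in KI-BAPN, and at 1.13, 5.94, 1.25, 1.02 and 0.536 CPM in KI replicates 1 to 5. KI-BAPN replicate 3 stood alone at the top and had the least Atad3a. KI replicate 2, with the least Atad3a of its group, was also the highest of its group. That library held 4009 CPM of sympathetic neuron genes in sum, against 130 to 639 CPM in the other KI libraries and 105 to 198 CPM in KI-BAPN. All 13 sympathetic neuron genes tested had negative slopes, with a median of -1.08 and 0 at an unadjusted p under 0.05. Of the 21 listed, up to 8 were at 0 in a library. Their part in the slope of Cx3cr1 was not tested. Without KI-BAPN replicate 3 the slope of Cx3cr1 in KI was -2.04, and without the 2 libraries farthest in Atad3a it was -2.09. The call was lost in all but 1 of the fits that left out a single library. In the 13 WT libraries the slope was -1.24 (edgeR adjusted p = 0.964).

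Genes with a mean of at least 5 CPM and slopes of the same sign in both treatments were ranked by r. Of these, 4181 also had that sign in the fit over both treatments. The 10 genes with the highest r were chosen by their r in these 11 libraries, so r is given as a description. They were Bap1 (a nuclear deubiquitinase), Ahctf1 and Pom121 (both of the nuclear pore), Rnf41 (a ubiquitin ligase), Ppp5c (a protein phosphatase), Chka (choline kinase), Kdm5c (a histone demethylase), Rrp9 (of ribosomal RNA processing), Rrn3 (an initiation factor of RNA polymerase I) and Med26 (of the Mediator complex). Their r ran from 0.949 to 0.967, their rho from 0.873 to 0.955 and their r without the 2 farthest libraries from 0.876 to 0.929. The 10th, Med26, had an r of 0.949, and the next gene, Zfp592, one of 0.946. Their slopes ran from 0.27 (Bap1) to 0.79 (Med26), below 1 in all 10. None of the 10 passed an adjusted p of 0.05, with edgeR adjusted p from 0.0627 to 0.147.

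Ahctf1, whose protein starts nuclear pore assembly on chromatin, was at 23.6 CPM at the lowest, 38.4 CPM at the median and 61.1 CPM at the highest in KI-BAPN. In KI it was at 43.4, 33.8, 42.4, 52.8 and 58.8 CPM in replicates 1 to 5. The library lowest in Atad3a was also lowest in Ahctf1 in both groups, and the highest was highest in both. Its slope was 0.60 ± 0.08 (SE, edgeR adjusted p = 0.0627). Kdm5c, the X-linked demethylase, was at 25.9, 41.5 and 64.5 CPM at the lowest, median and highest in KI-BAPN, and at 45.4, 33.1, 55.4, 55.0 and 61.8 CPM in KI replicates 1 to 5. Its order in KI-BAPN again ran from replicate 3 to replicate 4, and its slope was 0.59 ± 0.09 (SE, edgeR adjusted p = 0.0650).

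**Figure D2:**
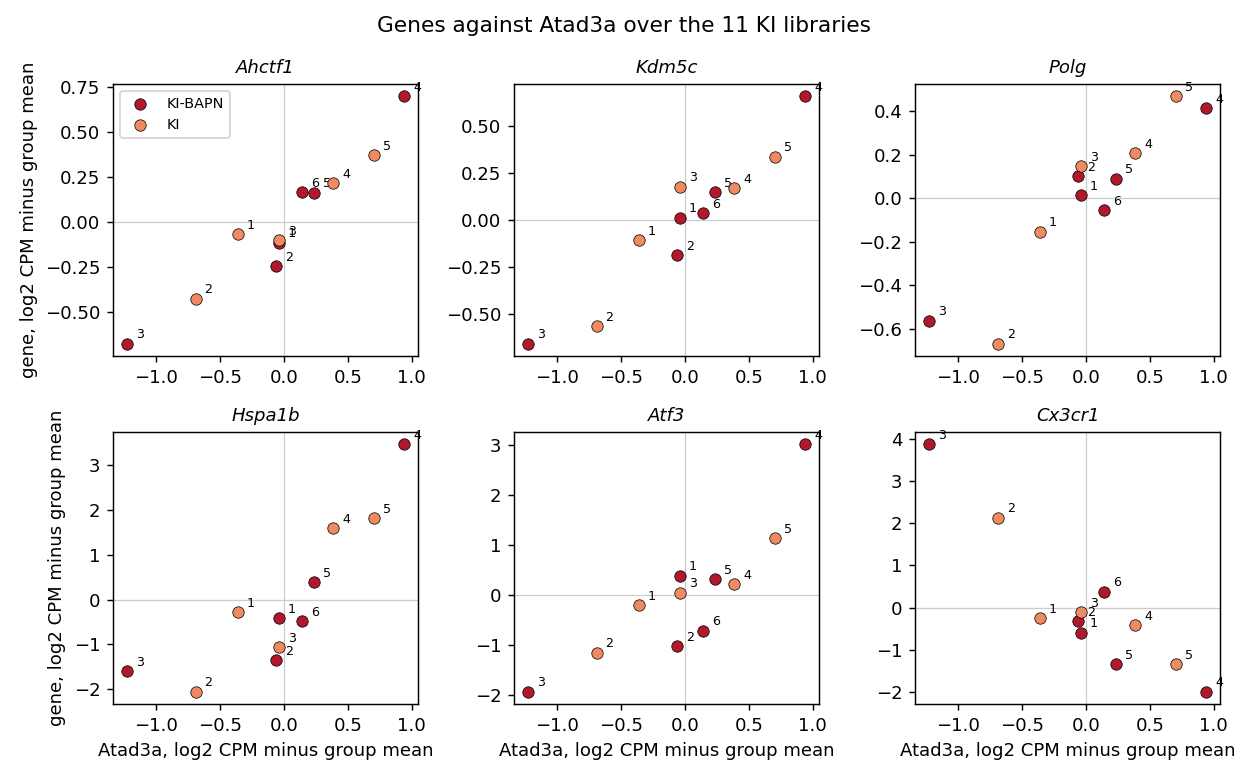
Log2 CPM of 6 genes against that of Atad3a in the 11 KI libraries, each minus its group mean; numbers are replicates. KI-BAPN replicates 3 and 4 form the ends of each plot, Ahctf1, Kdm5c, Polg, Hspa1b and Atf3 climb with Atad3a, and Cx3cr1 falls from 99.0 CPM in KI-BAPN replicate 3 to 1.68 CPM in KI-BAPN replicate 4.

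The 13 WT libraries, which the choice of genes did not use, give these slopes over a range of Atad3a that is much narrower. Of the 10 genes with the highest r, 9 had a positive slope in WT, 5 of them at an unadjusted p under 0.05. Of all 13409 genes tested in WT, 3.87% had a positive slope at such a p. The 5 were Kdm5c (slope 0.56), Chka (0.58), Rrp9 (0.53), Bap1 (0.34) and Pom121 (0.49). None was called there, with edgeR adjusted p of 0.743 to 0.823 for these 5, and over all genes in WT the test called 0 (0%). At an unadjusted p under 0.05, 519 WT genes had a positive and 290 a negative slope (2.16%), and DESeq2 called 30 genes. The slope of Ahctf1 was -0.08 in WT, against 0.60 in KI, with an unadjusted p of 0.000386 for the difference. Over all 14215 genes the test of the KI minus WT slope difference called 0 (0%) with edgeR and 0 with DESeq2, and 492 genes had an unadjusted p under 0.05.

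**Figure D3:**
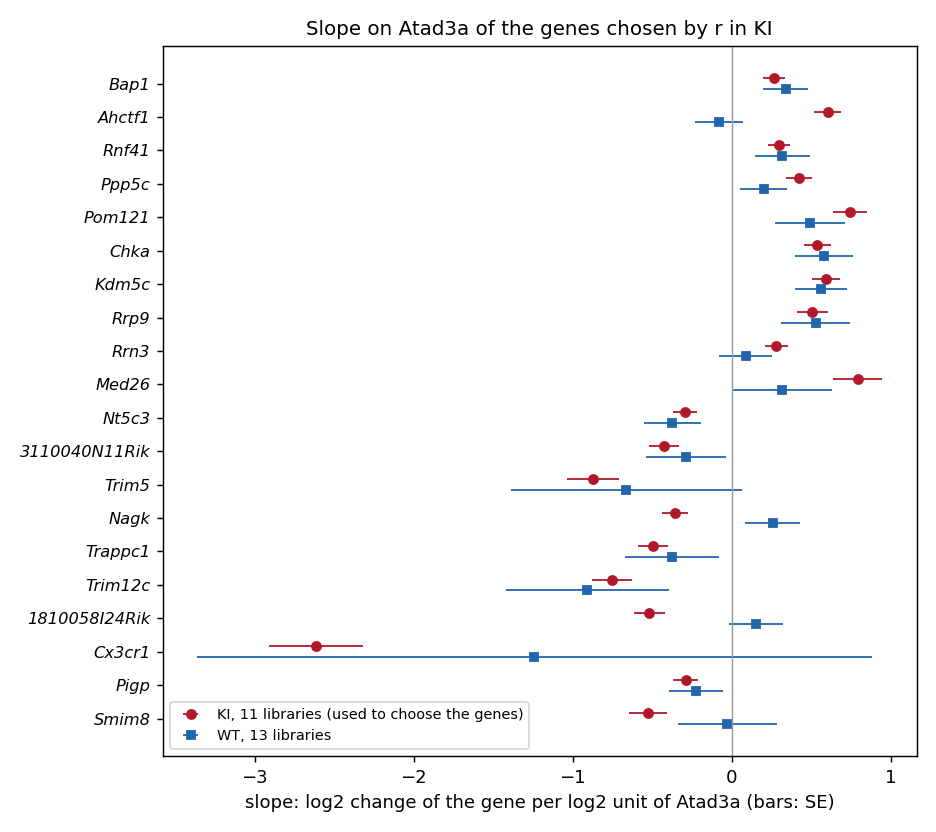
Slope on Atad3a, with its SE, of the 20 genes chosen by r in the KI libraries, in KI (circles) and in WT (squares). The WT slopes of Kdm5c, Chka, Rrp9 and Bap1 lie close to their KI slopes, while those of Ahctf1 (-0.08) and Nagk (0.26) lie on the other side of 0.

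The 10 genes with the lowest r, chosen by r in the same way, ran from -0.954 to -0.901 in r, and 0.734 to 0.973 in size without the 2 farthest libraries. They were Nt5c3 (a pyrimidine nucleotidase), 3110040N11Rik, Trim5 and Trim12c (of the TRIM family), Nagk (a kinase of N-acetylglucosamine), Trappc1 (of the TRAPP tethering complex), 1810058I24Rik, Cx3cr1, Pigp (of the first step of GPI anchor synthesis) and Smim8. The 10th, Smim8, had an r of -0.901, and the next gene, Hs6st2, one of -0.898. Apart from Cx3cr1, their slopes ran from -0.87 (Trim5) to -0.29 (Pigp). Trim5 and Trim12c are close copies of each other on chromosome 7, so their counts are uncertain. In WT, 8 of the 10 also had a negative slope, and none had an unadjusted p under 0.05. The differences from WT went the other way for Nagk (slope -0.36 in KI and 0.26 in WT, unadjusted p = 0.00174) and 1810058I24Rik (-0.52 in KI and 0.15 in WT, unadjusted p = 0.00194), and neither was called over all genes.

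None of these 20 genes was called as different between KI and WT. Their KI-BAPN minus WT-BAPN differences ran from -0.51 to 1.77 and their KI minus WT differences from -1.38 to 0.51 on the log2 scale, and the smallest edgeR adjusted p was 0.205. For Kdm5c these were -0.29 on BAPN and -0.29 on water, both with an edgeR adjusted p of 0.472.

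Slopes of the cytosolic heat shock genes were positive for 15 of 16. These chaperones bind unfolded proteins and are switched on by the heat shock factor when proteins misfold. Of 16 tested, 11 had a positive slope at an unadjusted p under 0.05 (8.82% of all genes) and 0 a negative one, and the median slope was 0.62, against -0.004 over all genes. None was called at an adjusted p under 0.05. The steepest were Hspa1b, with 2.35 ± 0.40 (SE, edgeR adjusted p = 0.0789), and Hspa1a, with 1.96 ± 0.35 (SE, edgeR adjusted p = 0.0839). Both encode the inducible HSP70 chaperone and are near-identical copies, so how reads were split between them is uncertain.

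Hspa1b was at 18.4 CPM at the lowest, 40.7 CPM at the median and 621 CPM at the highest in KI-BAPN, and at 109, 31.8, 63.3, 400 and 467 CPM in KI replicates 1 to 5. KI-BAPN replicate 4 stood far above the rest of its group, and KI replicates 4 and 5, with the most Atad3a of theirs, stood above the other 3. Hsp90ab1, a constitutive HSP90 chaperone, was at 587, 884 and 1245 CPM at the lowest, median and highest in KI-BAPN and at 1003, 894, 907, 1378 and 1672 CPM in KI replicates 1 to 5, a slope of 0.56 ± 0.14 (SE, edgeR adjusted p = 0.146). The 250 bases before the start of Hspa1b and of Hspa1a are shown because these are the steepest genes of the list. Lying before the start, these stretches do not bear on how reads were split between the copies. They are from RefSeq on GRCm38.p6, minus strand, at chr17:34959239-34959488 and chr17:34972157-34972406, with GAANNTTC, a pair of heat shock element half-sites that reads the same on both strands, in capitals.
Hspa1b: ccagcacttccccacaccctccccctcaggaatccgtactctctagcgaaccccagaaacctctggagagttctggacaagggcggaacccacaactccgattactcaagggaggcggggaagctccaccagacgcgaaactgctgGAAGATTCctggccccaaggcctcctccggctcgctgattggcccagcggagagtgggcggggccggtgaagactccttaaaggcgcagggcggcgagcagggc
Hspa1a: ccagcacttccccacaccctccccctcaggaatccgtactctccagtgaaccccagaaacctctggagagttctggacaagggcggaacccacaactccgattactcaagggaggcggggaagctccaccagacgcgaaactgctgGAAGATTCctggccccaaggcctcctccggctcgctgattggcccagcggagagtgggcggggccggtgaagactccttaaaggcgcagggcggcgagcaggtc
The stretches were identical at 247 of 250 positions, and the match lay 97 bases before the start in both. GAANNTTC was found in the same window of 4 of the 13 heat shock genes that matched the promoter table (30.8%) and of 2088 of all 27025 genes in it (7.73%). A match is a run of letters and shows no binding.

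The heat shock genes kept a positive median within each treatment, 0.51 in KI-BAPN and 0.91 in KI. In WT the median of the 16 was 0.47. There 4 had a positive slope at an unadjusted p under 0.05 (3.87% of all WT genes) and 0 a negative one. The 4 were Dnajb1 (0.89), Bag3 (0.79), Chordc1 (0.71) and Dnaja1 (0.89). Without KI-BAPN replicate 4 the KI median was 0.58, with 7 of 16 positive at an unadjusted p under 0.05 (7.83% of all genes in that fit). Without KI-BAPN replicate 3 it was 1.06, with 11 (6.10% of all genes). The summed level of the immediate early genes moved with these libraries too, from 586 CPM in KI-BAPN replicate 3 to 2376 CPM in KI-BAPN replicate 4. With the immediate early score as a covariate the heat shock median was 0.36, and 0 of 16 had an unadjusted p under 0.05.

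Immediate early genes, which cells transcribe within minutes of a stimulus, had positive slopes in all 21 members tested. Of these, 13 had an unadjusted p under 0.05 (8.82% of all genes tested were positive at such a p), and the median was 0.71. None was called at an adjusted p under 0.05. Without KI-BAPN replicate 4 the median was 0.69, with 8 genes at an unadjusted p under 0.05 (7.83% of all genes in that fit). Atf3, a stress-induced transcription factor, was at 8.75 CPM at the lowest, 31.2 CPM at the median and 272 CPM at the highest in KI-BAPN, and at 49.0, 25.3, 58.2, 65.7 and 124 CPM in KI replicates 1 to 5. KI-BAPN replicate 4 was again far above its group, and the slope was 1.99 ± 0.32 (SE, edgeR adjusted p = 0.0736). Fosb, a subunit of the AP-1 factor, had a slope of 1.90 ± 0.44 (SE, edgeR adjusted p = 0.121), and Jun, its partner, one of 0.71 ± 0.18 (SE, edgeR adjusted p = 0.146). In WT the median of the list was -0.03, with 0 genes at an unadjusted p under 0.05 in either direction.

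**Figure D4:**
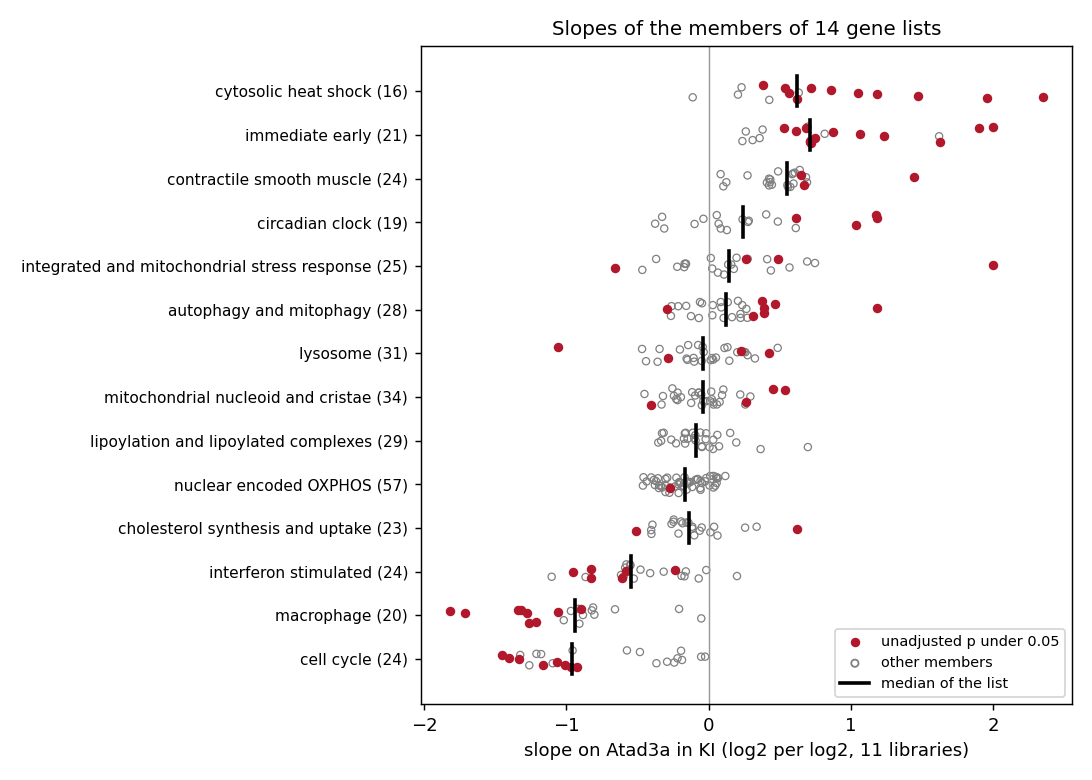
Slopes on Atad3a in the 11 KI libraries for the members of 14 gene lists, with the number tested in parentheses; filled points have an unadjusted p under 0.05 and bars are list medians. The medians of the immediate early (0.71) and heat shock (0.62) lists lie highest, and those of the cell cycle (-0.96) and macrophage (-0.94) lists lowest.

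Of 19 clock genes, 4 had a positive slope at an unadjusted p under 0.05 and 0 a negative one, with a median of 0.24, against 8.82% positive over all genes. Without KI-BAPN replicate 3 there were 2 positive and 1 negative. Per2, a repressor of the clock, was at 24.4, 55.4 and 164 CPM at the lowest, median and highest in KI-BAPN and at 61.5, 50.6, 85.0, 73.9 and 87.4 CPM in KI replicates 1 to 5. Its slope was 1.03 ± 0.22 (SE, edgeR adjusted p = 0.0985), that of Per1 1.17 ± 0.41 (adjusted p = 0.220) and that of Nfil3, a repressor of clock output, 1.18 ± 0.37 (adjusted p = 0.193). The labels give no time of day. The integrated stress response and the mitochondrial unfolded protein response are programmes by which cells answer mitochondrial faults. Of 25 of their genes, 3 had a positive and 1 a negative slope at an unadjusted p under 0.05, with a median of 0.14, against 8.82% positive and 6.67% negative over all genes. The median was -0.19 within KI-BAPN and 0.68 within KI. Without KI replicate 5 it was -0.03, with 1 positive and 5 negative slopes, and without KI-BAPN replicate 3 it was 0.51, with 6 and 2. Atf3, which this list shares with the immediate early list, was the steepest, Slc3a2, a chain of amino acid transporters, had a slope of 0.48 ± 0.18 (SE, edgeR adjusted p = 0.245), and Nupr1, a stress-induced nuclear protein, one of -0.66 ± 0.22 (SE, edgeR adjusted p = 0.215).

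All 24 contractile smooth muscle genes had a positive slope, but most did not reach an unadjusted p under 0.05. The median was 0.55, and 3 had an unadjusted p under 0.05, against 8.82% of all genes. This count depended on the tool. It was 14 with DESeq2, against 10.4% of all genes, and 9 with limma voom, against 7.8%. Myocd, the coactivator that drives the contractile genes, was at 8.38 CPM at the lowest, 22.6 CPM at the median and 65.9 CPM at the highest in KI-BAPN, and at 32.2, 11.4, 41.6, 87.5 and 56.4 CPM in KI replicates 1 to 5. The extremes in KI-BAPN were again replicates 3 and 4, and the slope was 1.44 ± 0.30 (SE, edgeR adjusted p = 0.0996). Flna, an actin crosslinker, had a slope of 0.67 ± 0.28 and Pln, which restrains the calcium pump of the sarcoplasmic reticulum, one of 0.65 ± 0.28 (SE, edgeR adjusted p = 0.293 and 0.309). Without KI-BAPN replicate 3 the median was 0.15, with 4 genes at an unadjusted p under 0.05, and without KI replicate 5 it was 0.68, with 15. There was 1 such gene without KI replicate 2 or 4, and there were 10 without KI-BAPN replicate 4. Cardiac muscle genes also had positive slopes, in all 9 tested, with a median of 0.78. Of these, 4 had an unadjusted p under 0.05, against 8.82% of all genes. The cardiac median was 1.25 within KI-BAPN and -0.14 within KI. The 12 listed cardiac genes summed to 76.6 to 384 CPM in KI-BAPN, highest in replicate 4, and to 71.0 to 150 CPM in KI. At most 1 of them was at 0 in a library. A fit with adipocyte, skeletal muscle and cardiac muscle scores as covariates gave a contractile median of 0.57. In that fit 13 of 24 genes had a positive slope at an unadjusted p under 0.05 (6.89% of all genes). The cardiac score alone was not fitted. Pln, named above, is also a cardiac gene. In WT the contractile median was 0.13, with 0 genes at an unadjusted p under 0.05. The summed level of the contractile list in KI libraries was lowest in KI-BAPN replicate 3, at 26270 CPM, and highest in KI replicate 3, at 101000 CPM.

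Macrophage, cell cycle and interferon genes had mostly negative slopes. Of 20 macrophage genes, 0 had a positive and 9 a negative slope at an unadjusted p under 0.05 (6.67% of all genes), with a median of -0.94. The values were -1.71 ± 0.36 (SE, edgeR adjusted p = 0.0970) for Aif1, an actin-binding protein of macrophages, -1.82 ± 0.46 (adjusted p = 0.146) for Ms4a7, a membrane protein of macrophages, and -1.21 ± 0.38 (adjusted p = 0.194) for Fcer1g, the signalling chain of Fc receptors. Aif1 was at 2.72, 5.98 and 57.8 CPM at the lowest, median and highest in KI-BAPN and at 1.95, 3.73, 0.557, 2.13 and 1.07 CPM in KI replicates 1 to 5. KI-BAPN replicate 3 held that highest value, and without it the list's median was -0.39 and 0 of 20 genes had an unadjusted p under 0.05. There were 3 such genes without KI-BAPN replicate 4 and 16 without KI-BAPN replicate 6. Within KI-BAPN the median was -1.56 and within KI -0.04. In WT it was -1.74, with 0 genes at an unadjusted p under 0.05.

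Of 24 cell cycle genes, all had a negative slope, 8 of them at an unadjusted p under 0.05 (6.67% of all genes), with a median of -0.96. Their levels were low. Birc5, which encodes survivin of the chromosomal passenger complex, was at 1.68, 2.66 and 11.03 CPM at the lowest, median and highest in KI-BAPN and at 2.03, 2.25, 1.07, 0.832 and 0.804 CPM in KI replicates 1 to 5, a slope of -1.17 ± 0.27 (SE, edgeR adjusted p = 0.120). Nusap1, a spindle protein, had a slope of -0.92 ± 0.28 and Ccnb2, a mitotic cyclin, one of -1.06 ± 0.39 (SE, edgeR adjusted p = 0.185 and 0.239). Without KI-BAPN replicate 3 the median was -1.005, with 7 genes at an unadjusted p under 0.05, and there were 3 such genes without KI replicate 2 or 5. Omitting KI replicate 4 left 5, omitting KI-BAPN replicate 4 left 4, and omitting KI-BAPN replicate 5 gave 15. Of 24 interferon stimulated genes, 6 had a negative and 0 a positive slope at an unadjusted p under 0.05, with a median of -0.55. They included Gbp3, a guanylate-binding GTPase (-0.61 ± 0.20, SE, edgeR adjusted p = 0.202), and Ifi44 (-0.83 ± 0.30, adjusted p = 0.232). The interferon median was -0.90 within KI-BAPN and 0.06 within KI, where 13 slopes were positive. For 5 of these genes the slope was called lower in KI-BAPN than in KI (5.47% of all genes). Without KI-BAPN replicate 3 the interferon median was -0.12, with 0 genes at an unadjusted p under 0.05. There were 3 without KI-BAPN replicate 4, 4 without KI replicate 2, and 9 to 12 without KI replicate 1, 3, 4 or 5 or KI-BAPN replicate 6, and without the 2 libraries farthest in Atad3a it was 0.08. In WT it was -2.09, with 8 negative slopes and 0 positive ones at an unadjusted p under 0.05 (2.16% of genes negative), and the KI minus WT difference of its slopes was not called for any gene. Markers of other tissue moved with the same libraries: the 10 mesothelium genes tested had a median slope of -1.47. The 13 listed summed to 23.0 to 315 CPM in KI-BAPN and 27.7 to 92.8 CPM in KI, highest in KI-BAPN replicate 3. Up to 5 of these mesothelium genes were at 0 in a library. When their score was added to the model, the macrophage median was -0.20, with 2 negative slopes at an unadjusted p under 0.05, the interferon median -0.14, with 0, and the cell cycle median -1.33, with 15.

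Genes closest to the known work of ATAD3A had medians near 0 over both treatments, but opposite signs within them. The nucleoid list had a median of -0.23 within KI-BAPN and 0.37 within KI, and the lipoylation list one of -0.32 within KI-BAPN and 0.40 within KI. Without KI replicate 5, 9 nucleoid (26.5%) and 8 lipoylation genes (27.6%) had a negative slope at an unadjusted p under 0.05, against 12.3% of all genes in that fit. The medians were 0.21 and 0.23 without KI-BAPN replicate 3. Over both treatments, of 34 genes of the nucleoid, the cristae and ATAD3A partners, 3 had a positive and 1 a negative slope at an unadjusted p under 0.05. Over all genes these shares were 8.82% and 6.67%. The median of the list was -0.04. Polg, the catalytic subunit of the mitochondrial DNA polymerase, was at 28.4, 43.5 and 55.8 CPM at the lowest, median and highest in KI-BAPN and at 44.3, 31.0, 54.6, 56.9 and 68.3 CPM in KI replicates 1 to 5. The library lowest in Atad3a was lowest in Polg in both groups, and the slope was 0.53 ± 0.10 (SE, edgeR adjusted p = 0.0839). Polrmt, the mitochondrial RNA polymerase, had a slope of 0.45 ± 0.12 in KI (SE, edgeR adjusted p = 0.146) and 0.53 in WT (adjusted p = 0.750). Dnajc19, a protein of the inner membrane import machinery, had one of -0.41 ± 0.12 (SE, edgeR adjusted p = 0.187).

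Of 57 nuclear genes of oxidative phosphorylation (OXPHOS), 0 had a positive and 1 a negative slope at an unadjusted p under 0.05, that of Atp5j (-0.28 ± 0.12, SE, edgeR adjusted p = 0.310), and the median was -0.17. Without KI replicate 5 the median was -0.49, with 33 negative slopes at an unadjusted p under 0.05, against 12.3% of all genes in that fit. Without KI-BAPN replicate 3 the median was 0.22, with 0 in either direction. Atp5l, like Atp5j of the ATP synthase, had a slope of -0.44 and Ndufb7, of complex I, one of -0.30. Of 29 genes of lipoylation and the lipoylated complexes, 0 had an unadjusted p under 0.05 in either direction, and the median was -0.09. The smallest p among them were those of Cbr4 (slope -0.36) and Lipt2 (-0.32), of mitochondrial fatty acid and lipoate synthesis, and Bola3 (-0.33), of iron-sulphur cluster delivery. Of 31 genes of the lysosome and its contacts with mitochondria, 2 had a positive and 2 a negative slope at an unadjusted p under 0.05. Over all genes these shares were 8.82% and 6.67%. The median of the lysosome list was -0.04. Npc1, which exports cholesterol from the lysosome, had a slope of 0.42 ± 0.13 and Mcoln1, a lysosomal calcium channel, one of 0.22 ± 0.09, while Lamp2, a protein of the lysosomal membrane, had one of -0.29 ± 0.12 (SE, edgeR adjusted p = 0.185, 0.269 and 0.288).

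Of 28 autophagy and mitophagy genes, 6 had a positive and 1 a negative slope at an unadjusted p under 0.05, with a median of 0.12, against 8.82% positive and 6.67% negative over all genes. Without KI-BAPN replicate 4 there were 10 positive and 0 negative ones, and without KI replicate 5 the median was -0.01. Within KI-BAPN the autophagy median was -0.08 and within KI it was 0.45. Atg9a, a scramblase of the growing autophagosome, was at 3.02, 10.9 and 15.2 CPM at the lowest, median and highest in KI-BAPN and at 8.95, 5.02, 18.8, 20.7 and 18.5 CPM in KI replicates 1 to 5. Its slope was 1.18 ± 0.26 (SE, edgeR adjusted p = 0.112), with 0.39 ± 0.10 for Becn1, of the lipid kinase complex that starts autophagy, and 0.38 ± 0.10 for Atg16l1, of the conjugation of LC3 (SE, edgeR adjusted p = 0.146 for both). Of 23 cholesterol genes, 1 had a positive and 1 a negative slope at an unadjusted p under 0.05. The slope of Nsdhl, an enzyme of late cholesterol synthesis, was -0.52 ± 0.22 (SE, edgeR adjusted p = 0.293). Insig1, which holds back sterol synthesis, had a slope of -0.40 ± 0.22 (SE, edgeR adjusted p = 0.421), and the median was -0.14. The cholesterol median was 0.15 within KI-BAPN and -0.74 within KI. Without KI-BAPN replicate 4 there were 0 positive and 5 negative slopes at an unadjusted p under 0.05, and without KI replicate 2 there were 3 and 0, with a median of 0.04.

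The OXPHOS genes had slopes of opposite sign in the 2 treatments. Within KI-BAPN the median of the 57 nuclear genes was -0.67, and none was positive. Within KI it was 0.70, and 54 were positive. Tested over all genes, the slope on Atad3a differed between KI-BAPN and KI for 1414 of 13647 genes (10.4%), higher in KI-BAPN for 668 (4.89%) and lower for 746 (5.47%). DESeq2 called 2863 genes whose slope on Atad3a differs between KI-BAPN and KI. Of the 57 OXPHOS genes, 23 were called lower and 0 higher, with a median difference of -1.37. Of the 34 nucleoid and cristae genes 8 were called lower, and of the 28 autophagy genes 6. Of the 29 lipoylation genes 5 were called lower, named here after their values were seen: Nfu1 (-0.96), Lias (-1.06), Isca1 (-1.38), Pdha1 (-1.88) and Mcat (-1.23), of lipoate synthesis, iron-sulphur clusters, pyruvate dehydrogenase and mitochondrial fatty acid synthesis. Cholesterol genes went mostly the other way, with 4 higher, among them Sqle (1.73), Msmo1 (1.12) and Srebf2 (1.11), and 1 lower, Ebp (-1.22), also named after their values were seen.

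The calls of a slope difference between treatments depended on single libraries. No gene was called when KI replicate 1, 2, 4 or 5, or KI-BAPN replicate 3 or 4, was left out, and 1129 to 1759 were called without any one of the other 5. The median difference of the OXPHOS genes was kept in most of these fits. It was -1.67 to -1.38 without KI replicate 1, 2 or 4 or KI-BAPN replicate 3 or 4, and -0.76 without KI replicate 5. Adipocyte genes also had medians of opposite sign, -1.17 within KI-BAPN and 2.18 within KI. Of the 17 tested, 1 was called lower in KI-BAPN (5.47% of all genes) and 0 higher. Their summed level was highest in KI-BAPN replicate 3, at 15510 CPM, which had the least Atad3a of its group, and in KI replicate 5, at 16800 CPM, which had the most of its own. All 17 adipocyte genes were detected in each of these libraries. Without these 2 libraries the median difference of the OXPHOS genes was -0.84 and 0 were called. With the adipocyte score as a covariate it was -0.67, and 1 gene in all was called. Fatty acid oxidation genes (22 tested, -0.60 within KI-BAPN and 1.16 within KI) and endothelial genes (18 tested, -0.35 and 1.14) also had medians of opposite sign, whereas the heat shock and immediate early lists kept a positive median in both treatments.

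**Figure D5:**
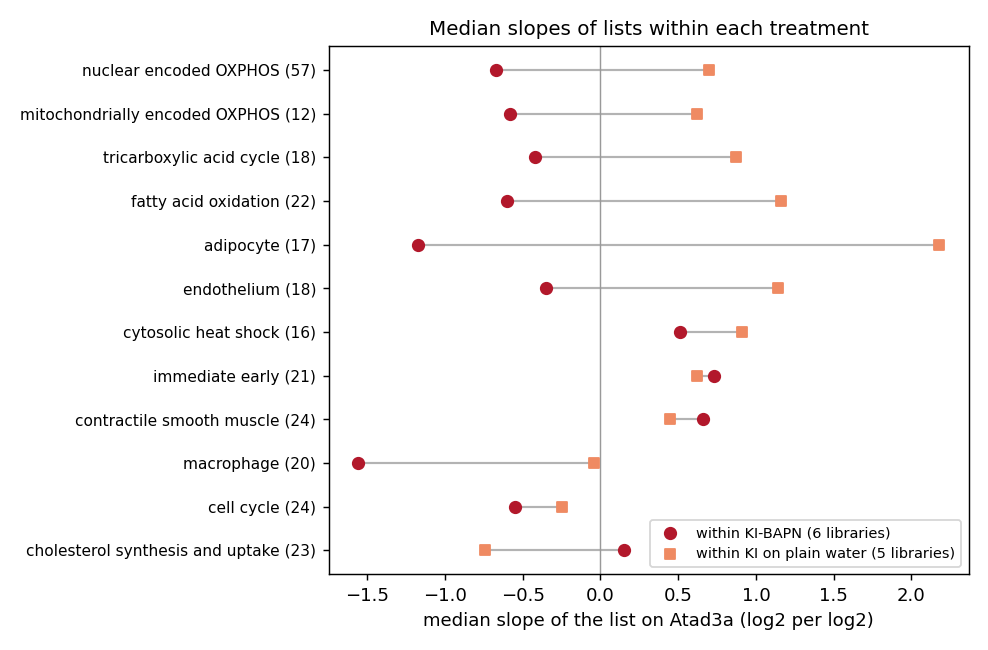
Median slope on Atad3a of 12 gene lists within KI-BAPN (circles) and within KI on plain water (squares), over the members fitted in each except for the cell cycle list. The number tested over both treatments is in parentheses. The cell cycle square, at -0.25, included slopes that were not those of its members. The 15 members fitted within KI had a median of -0.61. The mitochondrial and adipocyte lists lie left of 0 in KI-BAPN and right of it in KI, from -1.17 to 2.18 for the adipocyte list, while the heat shock, immediate early and contractile lists lie right of 0 in both.

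The genes near Atad3a on chromosome 4 did not follow it as a block. Of 24 genes within 200 kb in the deposited coordinates, whose build is open, 23 were tested in KI, and 0 were called. Their slopes ran from -0.93 to 0.44, and 3 had an unadjusted p under 0.05, 2 of them positive (8.82% of all genes) and 1 negative (6.67%). Ints11, the endonuclease of the Integrator complex, had the highest r of these, 0.85, and a slope of 0.39 ± 0.12 (SE, edgeR adjusted p = 0.185). Aurkaip1, a protein of the mitochondrial ribosome, was the only one of the 23 whose slope was called as different between the treatments, -0.58 within KI-BAPN and 0.23 within KI (difference -0.84, edgeR adjusted p = 0.0312).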

How the data were processed

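Gene counts of 24 libraries were deposited by the authors as a single table of 21959 genes. Per the submitters' processing notes, Trim Galore, FastQC, HISAT2 and DESeq2 were used, with the builds GRCm38 and mm10; the counter and the strand setting were not given in the sources used here. All columns matched a library, and no 2 libraries were identical. The 11 KI libraries were fitted with edgeR 4.0.16 in R 4.3.3 (TMM factors, filterByExpr, quasi-likelihood F test), with treatment and log2 CPM of Atad3a, taken from the same counts, as terms; p was adjusted by Benjamini-Hochberg over all genes tested, Atad3a left out. WT libraries, the KI minus WT slope difference and the KI-BAPN minus KI slope difference were fitted likewise. Without strand, overlapping genes are uncertain. CPM used a prior count of 2 on the log2 scale. Named genes were Atad3a, the genes within 200 kb, the 10 highest and 10 lowest r, up to 3 members with the smallest p of each list described, and every called gene where 5 or fewer were called. The genes near Atad3a, apart from Ints11 and Aurkaip1, are given by range. Members and the 34 lists were chosen with earlier results of these data known. Alternatives with limma 3.58.1 and DESeq2 1.42.0, other factors, filters, covariates and libraries left out are given under the dependence on processing. The fits were tested on simulated data. Some named genes and list members are not reported here.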

Additional observations from a re-analysis of the deposited data

Results flagged for a closer look

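Among 130 groups of values checked for a library far from the others of its group, 16 held one. The check would flag about 1 in 20 groups of unrelated values. Most of these genes were chosen by their relation to Atad3a, whose extremes are KI-BAPN replicates 3 and 4. The 16 can therefore not be set against that share. KI-BAPN replicate 3, with the least Atad3a of the KI libraries, held 8 of the 16. It was highest in KI-BAPN for Cx3cr1 (98.97 CPM), Aif1 (57.81 CPM), Ms4a7 (51.34 CPM), Ifi44 (10.82 CPM), Trim5 (12.2 CPM) and Trim12c (42.48 CPM), and lowest for Flna (3207 CPM). Its summed adipocyte level was 15510 CPM. KI-BAPN replicate 4, with the most Atad3a of its group, was highest for Hspa1b (621.1 CPM), Hspa1a (313.6 CPM) and Atf3 (272.4 CPM). KI replicate 2 was highest in KI for Cx3cr1 (5.943 CPM) and Insig1 (84.73 CPM), and KI replicate 5 for Aurkaip1 (89.86 CPM) and the summed adipocyte level (16800 CPM). WT replicate 4 was highest in WT for Atad3a, at 60.66 CPM.

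The slope on Atad3a differed between KI-BAPN and KI for 1414 genes, among them Aurkaip1, with a difference of -0.841 (edgeR adjusted p = 0.0312). These calls were lost when any one of 6 libraries was left out.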

How the results depend on the processing

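The count of genes following Atad3a in KI was 1. RLE factors, upper quartile factors, no filter and no robust estimation also gave 1. DESeq2 gave 613, an adjusted p under 0.1 gave 85, no treatment term 796, all 24 libraries in the fit 84, an adipocyte covariate 82, and leaving out the 2 libraries farthest in Atad3a 27. The count was 0 with limma voom, a mean of at least 5 CPM, an adjusted p under 0.01, linear or ranked Atad3a, KI or KI-BAPN alone, the other covariates (adipocyte with muscle, contractile, log2 total counts, mitochondrial share, macrophage, mesothelium, immediate early), and without KI replicates 1, 2 and 5 or without both adipocyte-rich libraries. Leaving out 1 replicate gave 0 to 1. In WT, DESeq2 called 30 against 0 in edgeR, and the KI minus WT difference was 0 in every setting run. For the 1414 genes whose slope on Atad3a differs between KI-BAPN and KI, DESeq2 gave 2863, ranked Atad3a 505, an adipocyte covariate 1, omission of both adipocyte-rich libraries 0, and leaving out 1 replicate 0 to 1759. The cause was not tested. With the replicate number as a block, 0 genes followed Atad3a and 0 differed between treatments. The numbers share only a name: deviations of same-numbered KI-BAPN and KI libraries correlated from -0.533 to 0.414, and 1 of 5 matched its own number best.

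Of 2311 values for 61 named genes, 2140 kept direction and side, 129 passed the threshold newly, and 29, all Cx3cr1, lost it. The 13 slopes that changed sign were, within KI alone, Aurkaip1 0.226, Bola3 0.148, Atp5l 0.112 and Ndufb7 0.213; without the 2 farthest libraries, Aurkaip1 0.222, Bola3 0.135, Lamp2 0.021, Atp5l 0.105 and Ndufb7 0.183; with the contractile score, Fcer1g 0.047, Nsdhl 0.005 and Insig1 0.279; and with the immediate early score, Cbr4 0.071. The covariates for macrophage, mesothelium, immediate early and adipocyte scores alone, the omission of both adipocyte-rich libraries and the ranked treatment difference were chosen after seeing the data. Genes at a few CPM, such as Cx3cr1 and Birc5 in KI, are limited by depth.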
